A study of Mus musculus with 12 samples.

Results

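Livers of leptin receptor mutant mice were compared with livers of misty mice across the genes of the table deposited for this pair. The hormone leptin is released by adipose tissue and acts in the brain through the long form of its receptor, LEPR. The Leprdb allele disturbs the splicing of that form, and mice with 2 such alleles overeat, become obese and develop insulin resistance. Misty mice are used as lean controls for db animals. The liver is a main site of lipid, glucose and drug metabolism, and in rodents many of its genes differ between the sexes under the control of the growth hormone pattern and the factor STAT5B.

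The series holds 12 livers, of which 6 belong here: 3 of db mice (genotype label Leprdb) and 3 of misty mice, with all 6 animals on the control diet named NCD. The misty genotype label also names Leprdb and does not give the zygosity of that allele. The other 6 livers, of wild-type C57BL/6 mice fed either a high-fat chow (HFD) or the control diet (here CD), are used only for values set side by side. The labels give C57BL/6 and an age of 36 weeks for db and misty, whereas the study's methods give the BKS background and a younger age and another number of animals for them, so age and strain are uncertain here. The methods describe the animals as male.

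Total RNA depleted of ribosomal RNA was sequenced, and the table gives 1 pooled FPKM value per group and transcript (fragments per kilobase of transcript, scaled to the mapped fragments of the library). There is therefore no replicate value, no error and no test in what follows. The spread between livers is not known, and neither is the depth of each library. A ratio is the log2 of db FPKM + 0.5 over misty FPKM + 0.5, which understates differences of low genes, and a gene is said to be past the mark where that ratio is at least 1 or at most -1, that is 2-fold. All differences are between 2 pooled values and have no replicate check.

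Of 62945 transcripts listed, 19918 had status OK and 16251 of these carried a gene name, which gave 11561 genes, each represented by its most abundant transcript. A level of at least 1 FPKM in the higher group was reached by 6488 genes, of which 5364 reached it in both groups, 522 in db alone and 602 in misty alone. Of the 6488 genes compared, 427 were 2-fold or more higher in db liver, which is 6.58%, and 226 were 2-fold or more lower, which is 3.48%. Among genes at 1 FPKM or more in both groups, 257 were past the mark upwards and 120 downwards. The median log2 ratio of all genes compared was 0.04. At 4-fold or more, 114 genes were higher and 54 lower. The genes nearest to the mark on the upper side were Phka2 just inside (1.27 FPKM in db and 0.384 FPKM in misty liver) and Gm18427 just outside (30.05 FPKM in db and 14.8 FPKM in misty liver). On the lower side they were Cdkn1a just inside (3.55 FPKM in db and 7.598 FPKM in misty liver) and Impa2 just outside (0.572 FPKM in db and 1.64 FPKM in misty liver).

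**Figure D1:**
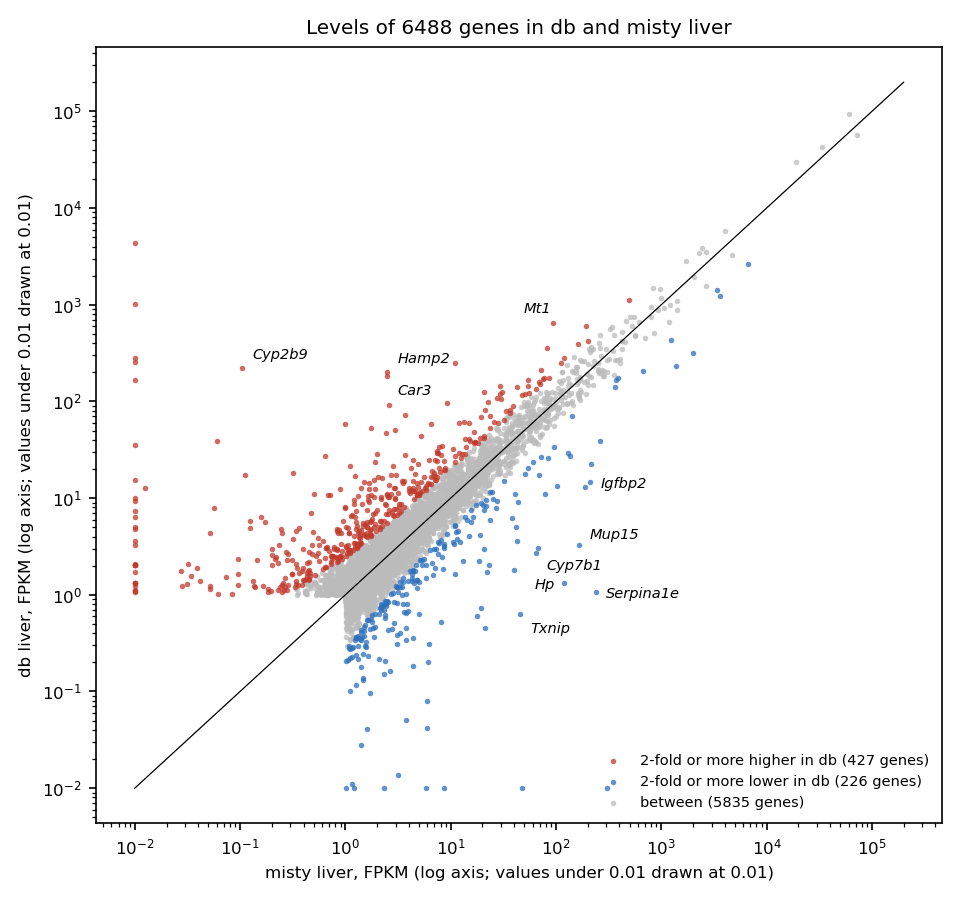
Level of each of the 6488 genes in db liver (vertical axis) and misty liver (horizontal axis), in FPKM on log axes, 1 pooled value per group, with values under 0.01 FPKM drawn at 0.01 and the line of equal levels in black. The 427 genes 2-fold or more higher in db include Cyp2b9 at 223 FPKM in db against 0.104 FPKM in misty, and the 226 lower genes include Serpina1e at 1.07 FPKM in db against 239 FPKM in misty.

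The genotype was looked at first. All 5 listed lines of Lepr transcripts were lower in db liver. Lepr-001, whose annotated protein of 1162 residues is the long form, had 0.241 FPKM in db and 0.485 FPKM in misty liver. Summed over the 5 lines the level was 0.888 FPKM in db liver against 2.47 FPKM in misty liver, a plain ratio of 2.78 in favour of misty. Each of these lines lies under 1 FPKM in both groups, and the levels do not show the splicing change itself.

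Both groups held liver RNA. Of 22 hepatocyte markers 14 were compared, and they summed to 7864 FPKM in db and 15811 FPKM in misty liver. Apoa1, the main protein of high-density lipoprotein, had 1244 FPKM in db and 3623 FPKM in misty liver, and the fatty acid binding protein Fabp1 2612 FPKM in db and 6709 FPKM in misty liver. These 2 were the markers past the mark downwards. The carrier of retinol, Rbp4, stood at 1959 FPKM in db and 2065 FPKM in misty liver. A listed level is that of the listed transcript: albumin (Alb) is listed at 0 in both groups, which can only be a failed estimate in liver, and Ttr, a plasma protein gene, is listed at 3.15 FPKM in db and 0.664 FPKM in misty liver. So a low or absent value here is not a measure of the whole gene.

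The most distinct groups were the sex-biased liver genes. In male mice growth hormone comes in pulses that activate STAT5B, and male-biased genes depend on this pattern while female-biased genes are held down by it. Of 27 male-biased genes compared, 22 were 2-fold or more lower in db liver and 1 was higher, with a median log2 ratio of -2.32 against 0.04 over all genes. Of 22 female-biased genes compared, 17 were higher and 1 was lower, with a median of 2.80. The lists were drawn up with earlier results of these data known, so these counts describe the groups and are not independent evidence.

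Cyp2b9, a cytochrome P450 of female mouse liver, had the highest ratio of all protein-coding genes, with 223 FPKM in db liver, against 0.104 FPKM in misty liver (log2 ratio 8.53). Its neighbour Cyp2b13 had 35.5 FPKM in db liver and is listed at 0 in misty liver. The sulfotransferase Sult3a1 had 166 FPKM in db liver and is listed next to 0 in misty liver. A value of 0 for the listed transcript does not show that the gene was silent in misty liver. Sult1e1, the estrogen sulfotransferase, had 38.7 FPKM in db liver, against 0.0604 FPKM in misty liver (6.13). Hamp2, a hepcidin copy, had 203 FPKM in db liver, against 2.48 FPKM in misty liver (6.09). The coumarin hydroxylase Cyp2a5 had 252 FPKM in db liver, against 10.9 FPKM in misty liver (4.47). The only female-biased gene past the mark the other way was the fatty acid hydroxylase Cyp4a14, at 9.43 FPKM in db and 27.8 FPKM in misty liver (-1.51). Cyp2c40 stood at 2.39 FPKM in db and 2.19 FPKM in misty liver, close to equal.

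Serpina1e, one copy of the alpha-1-antitrypsin genes, headed the male-biased side with 1.07 FPKM in db liver, against 239 FPKM in misty liver (-7.26). The major urinary proteins (Mup), small lipocalins that carry pheromones into urine, were low as a family. Mup15 had 3.23 FPKM in db liver, against 167 FPKM in misty liver (-5.48), Mup1 3.03 FPKM in db and 67.05 FPKM in misty liver (-4.26), and Mup17 13.04 FPKM in db and 188 FPKM in misty liver (-3.80). Of 11 Mup genes compared 9 were lower past the mark and none higher, and their summed level was 1784 FPKM in db against 6116 FPKM in misty liver. Cyp7b1, the oxysterol 7alpha-hydroxylase, had 2.68 FPKM in db liver, against 65.2 FPKM in misty liver (-4.37). The fatty acid elongase Elovl3 had 13.3 FPKM in db liver, against 101 FPKM in misty liver (-2.88), and the steroid enzyme Hsd3b5 0.0509 FPKM in db and 3.76 FPKM in misty liver (-2.95). Nat8, an acetyltransferase of mercapturate synthesis, was the 1 gene of the male-biased list past the mark upwards. It had 4.78 FPKM in db liver, against 1.26 FPKM in misty liver (1.59). Car3, which is abundant in male rodent liver, was not in that list and is not in its counts. Car3 was higher in db liver, at 184 FPKM against 2.49 FPKM in misty liver (5.95). Cyp4a12a, at 196 FPKM in db and 155 FPKM in misty liver, did not follow the list. The Mup, Cyp2, Sult and Serpina1 genes have close copies, and how the authors' counting divided reads among copies is uncertain.

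**Figure D2:**
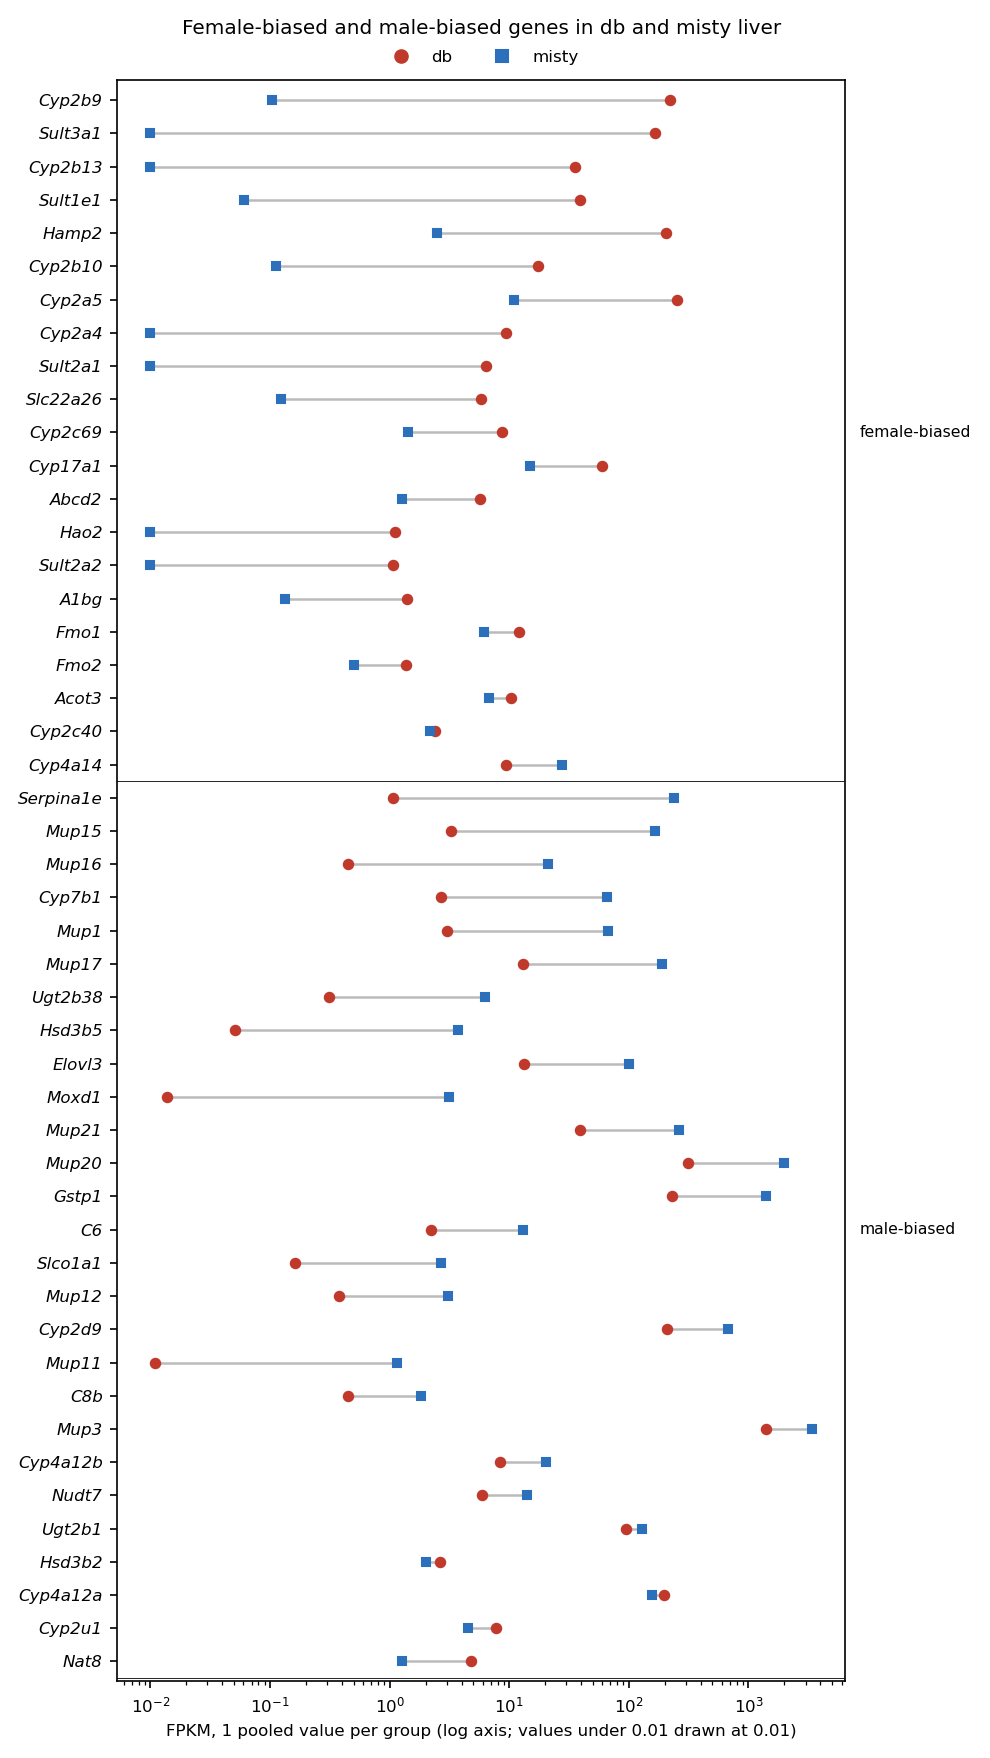
Levels of 21 of the 22 female-biased and all 27 male-biased genes compared, in FPKM on a log axis, with db as red circles, misty as blue squares and values under 0.01 FPKM drawn at 0.01. Most female-biased genes have db to the right of misty, from Cyp2b9 (8.53 on the log2 scale) downwards, and most male-biased genes have db to the left, from Serpina1e (-7.26) downwards.

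Promoter sequence was read for members of gene groups that lay mostly on one side. A RefSeq window (build GRCm38.p6) of 250 bases before the gene start was found for 4376 of the 6488 genes compared, of which 3262 began within 50 bases of the listed transcript's start. The D-box, bound by the circadian factors DBP, TEF and E4BP4 and searched as TTATGNAA on both strands, occurred in 2.17% of the 4376 windows. It occurred in 18 of 275 windows of genes higher in db (6.55%) and in 4 of 136 windows of genes lower in db (2.94%). Of the matches in higher genes, 4 lie in female-biased genes (Cyp2a4, Cyp2a5, Cyp2b10 and Hao2), and 3 of the lower ones in Mup copies, which share sequence. The site for STAT5, searched as TTCNNNGAA on both strands, occurred in 5.92% of all windows, in 6.18% of those of higher genes and in 4.41% of those of lower genes. Of 15 female-biased windows 4 held it, and 1 of 18 male-biased windows. The Sult3a1 window, 1 of those 4, belongs to a start 6213 bases from that of its listed transcript. The MAF and NRF2 core (TGACNNNGC), the CREB site (TGACGTCA) and the SREBP sterol element (TCACNCCAC) were searched too. They occurred in 12.2%, 2.72% and 1.07% of all windows. Their shares were 9.45%, 0.727% and 0.727% in higher genes and 9.56%, 2.94% and 2.94% in lower genes. A match is only a match of letters in this window and shows no binding.

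Windows of 4 sex-biased genes with a match are shown, 5′ to 3′, because these genes lay among the widest differences, with the matched letters in capitals (D-box in Cyp2a5, Cyp2a4 and Mup15, STAT5 letters in Hamp2).
Cyp2a5 (chr7:26835089-26835338, plus strand): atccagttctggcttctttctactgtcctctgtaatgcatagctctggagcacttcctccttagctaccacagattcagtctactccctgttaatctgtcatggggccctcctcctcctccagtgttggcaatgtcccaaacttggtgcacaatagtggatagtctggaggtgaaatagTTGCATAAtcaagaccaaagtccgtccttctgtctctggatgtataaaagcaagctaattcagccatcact
Cyp2a4 (chr7:26306942-26307191, plus strand): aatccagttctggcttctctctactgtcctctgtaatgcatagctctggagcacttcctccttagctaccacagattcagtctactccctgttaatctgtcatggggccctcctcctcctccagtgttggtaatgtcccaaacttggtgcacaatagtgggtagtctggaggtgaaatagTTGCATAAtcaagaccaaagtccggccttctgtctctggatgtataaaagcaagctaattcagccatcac
Mup15 (chr4:61439705-61439954, minus strand): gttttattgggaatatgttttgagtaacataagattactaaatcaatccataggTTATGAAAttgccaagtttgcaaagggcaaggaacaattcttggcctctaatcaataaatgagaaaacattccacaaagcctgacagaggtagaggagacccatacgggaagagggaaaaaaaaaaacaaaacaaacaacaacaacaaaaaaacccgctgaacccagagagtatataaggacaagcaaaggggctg
Hamp2 (chr7:30924182-30924431, minus strand): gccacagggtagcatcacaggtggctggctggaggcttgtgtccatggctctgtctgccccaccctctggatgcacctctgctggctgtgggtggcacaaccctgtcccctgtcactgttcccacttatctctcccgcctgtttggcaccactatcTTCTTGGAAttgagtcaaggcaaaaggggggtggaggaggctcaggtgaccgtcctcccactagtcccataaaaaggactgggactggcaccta
In Cyp2a4 and Cyp2a5, which are close copies, the D-box starts 70 and 71 bases before the gene start. Cyp2a4 had 9.39 FPKM in db and 0.00806 FPKM in misty liver, so both copies were higher in db. Mup15 carries the letters 196 bases before its start and was lower.

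Drug-metabolizing enzymes, which oxidize and then conjugate foreign compounds and steroids, were mostly higher in db liver. Of 37 members compared 15 were past the mark upwards and 1 downwards, with a median of 0.83. Cyp2b10, the usual target of the receptor CAR, had 17.2 FPKM in db liver, against 0.112 FPKM in misty liver (4.86) and is also in the female-biased list. The nonsense-mediated decay transcript of Cyp3a59 had 12.4 FPKM in db and 1.899 FPKM in misty liver (2.43), and the carboxylesterase Ces1g 124 FPKM in db and 20.9 FPKM in misty liver (2.54). Higher levels were also found for Cyp2c50 at 143 FPKM in db and 29.2 FPKM in misty liver, for Cyp2c38 at 60.5 FPKM in db and 12.1 FPKM in misty liver, and for Cyp3a25 at 360.0 FPKM in db and 82.7 FPKM in misty liver. The receptors themselves were near equal, with Nr1i3 (CAR) at 30.99 FPKM in db and 24.5 FPKM in misty liver and Nr1i2 (PXR) at 18.03 FPKM in db and 21.8 FPKM in misty liver. Cyp1a2, at 76.98 FPKM in db and 75.7 FPKM in misty liver, and Cyp2e1, at 3476 FPKM in db and 2631 FPKM in misty liver, were close to equal or modestly higher. Ces3a, at 175 FPKM in db liver, against 386 FPKM in misty liver (-1.14), was the member past the mark downwards.

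Glutathione enzymes filled the list of targets of NRF2, the factor that switches on antioxidant genes. Of 21 members compared 12 were higher and 1 was lower past the mark, with a median of 1.70. Gstm3 had 58.3 FPKM in db liver, against 0.998 FPKM in misty liver (5.30), Gsta2 92.5 FPKM in db and 2.599 FPKM in misty liver (4.91), and Gsta3 14.8 FPKM in db and 1.51 FPKM in misty liver (2.93). The quinone reductase Nqo1 had 4.91 FPKM in db liver, against 1.06 FPKM in misty liver (1.79), and the glutathione synthetase Gss 12.6 FPKM in db and 2.95 FPKM in misty liver (1.93). Other classical NRF2 targets did not pass the mark: the heme oxygenase Hmox1 stood at 6.25 FPKM in db and 5.79 FPKM in misty liver, the thioredoxin reductase Txnrd1 at 2.88 FPKM in db and 3.82 FPKM in misty liver, and the sulfiredoxin Srxn1 at 0.794 FPKM in db and 1.52 FPKM in misty liver. So most of the list's higher members were glutathione transferases, which conjugate glutathione to electrophiles. Gstp2 was the list's lower member, with 0.521 FPKM in db and 1.802 FPKM in misty liver (-1.17). Gstp1, a male-biased transferase outside this list, was lower too, with 229.9 FPKM in db liver, against 1392 FPKM in misty liver (-2.60). Of 18 glutathione transferase genes compared by name 11 were higher and 2 lower past the mark. Their summed level was lower in db, at 1057 FPKM against 1660 FPKM in misty liver. Nfe2l2, which encodes NRF2, had 9.13 FPKM in db and 5.19 FPKM in misty liver (0.76).

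**Figure D3:**
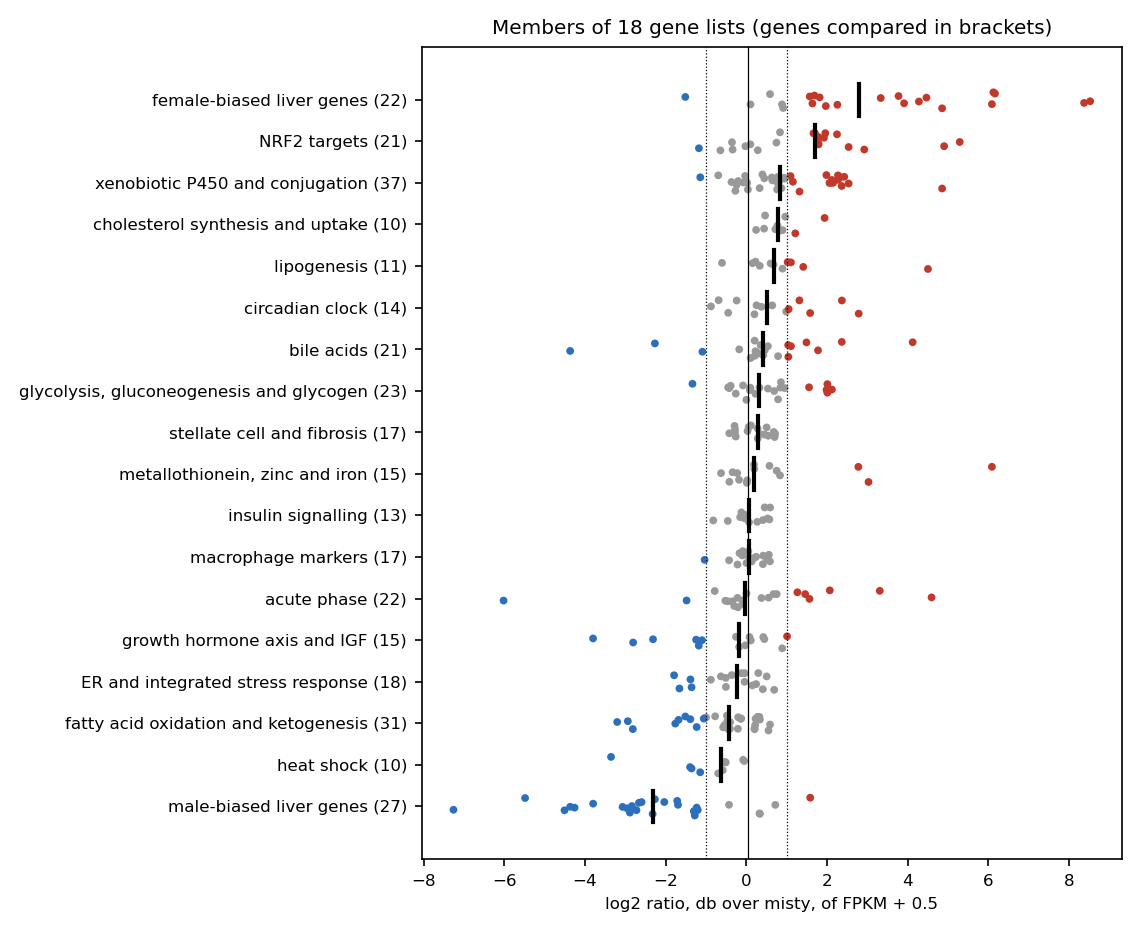
The log2 ratio (db over misty) of every compared member of 18 gene lists, with each list's median as a black bar, the median of all genes as a solid line and the 2-fold mark dotted. The lists run from the female-biased genes (median 2.80) at the top to the male-biased genes (median -2.32) at the bottom, and points past the mark are red where higher and blue where lower.

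Lipid synthesis genes that could be compared tended to be higher. Of 23 lipogenesis genes 11 were compared, and 4 of these were past the mark upwards and none downwards (median 0.68). Scd1, Srebf1, Me1 and Dgat1 had no transcript with status OK, and Acaca and Acly lay under 1 FPKM in both groups. Fads2, at 203 FPKM in db and 308 FPKM in misty liver (-0.60), was the 1 member below 0. The compared members summed to 339 FPKM in db and 381 FPKM in misty liver. Thrsp, a promoter of fatty acid synthesis, had 18.1 FPKM in db liver, against 0.317 FPKM in misty liver (4.51) for a transcript annotated as retaining an intron. The elongase Elovl6 had 4.36 FPKM in db liver, against 1.32 FPKM in misty liver (1.41), the desaturase Scd2 2.16 FPKM in db and 0.731 FPKM in misty liver (1.11), and Dgat2, which makes triglyceride, 37.3 FPKM in db and 18.04 FPKM in misty liver (1.03). Fatty acid synthase (Fasn), at 5.86 FPKM in db and 2.91 FPKM in misty liver (0.90), stayed inside the mark. All 10 cholesterol synthesis and uptake genes compared had ratios above 0, and 2 of them, the sterol enzymes Nsdhl (7.58 FPKM in db and 1.599 FPKM in misty liver) and Msmo1 (4.64 FPKM in db and 1.71 FPKM in misty liver), passed the mark.

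Genes of fatty acid uptake and of lipid droplets did not go one way. The fatty acid transporter Cd36 had 10.7 FPKM in db liver, against 0.684 FPKM in misty liver (3.24), and the very low-density lipoprotein receptor Vldlr 2.97 FPKM in db and 0.199 FPKM in misty liver (2.31). Slc27a5, which activates bile acids and long fatty acids, had 134 FPKM in db and 65.1 FPKM in misty liver (1.04). Fabp1 was lower, as given above, and was the 1 uptake gene of 10 past the mark downwards, with 3 past it upwards. Among 6 droplet genes, Fitm1, which helps form droplets, had 12.3 FPKM in db liver, against 0.879 FPKM in misty liver (3.21). Cidec, a protein of large droplets, had 5.87 FPKM in db liver, against 23.8 FPKM in misty liver (-1.93), and G0s2, an inhibitor of lipolysis, 34.1 FPKM in db and 96.4 FPKM in misty liver (-1.48). Droplet genes are often higher in fatty liver, and here 2 of the 6 were past the mark downwards. The lipoprotein carrier of sphingosine phosphate, Apom, had 26.8 FPKM in db and 71.4 FPKM in misty liver (-1.40).

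Fatty acid oxidation and ketogenesis lay on the low side. Of 31 members compared 9 were past the mark downwards and none upwards, with a median of -0.43. Pdk4, a kinase that shuts off pyruvate oxidation in fasting, had 2.04 FPKM in db liver, against 22.9 FPKM in misty liver (-3.20). The peroxisomal enzyme Ehhadh had 5.02 FPKM in db liver, against 41.7 FPKM in misty liver (-2.94), and the fasting hormone Fgf21 2.21 FPKM in db and 18.6 FPKM in misty liver (-2.81). Cpt1b, a carnitine transferase, stood at 4.05 FPKM in db and 14.9 FPKM in misty liver (-1.76), and the thioesterase Acot1 at 26.1 FPKM in db and 84.7 FPKM in misty liver (-1.68). Several of the genes lower past the mark are known targets of PPARa, whose own gene Ppara had 1.88 FPKM in db and 2.82 FPKM in misty liver (-0.48). A part played by PPARa was not tested. Of the 31 members 22 had ratios below 0 and 9 above 0, the latter including Acot3 (0.59), Slc25a20 (0.33) and Vnn1 (0.21). Enzymes of the mitochondrial spiral differed less, with Acadl at 36.7 FPKM in db and 42.3 FPKM in misty liver and Acaa2 at 604 FPKM in db and 523 FPKM in misty liver.

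Glucose genes leaned upwards. Of 23 compared 5 were higher and 1 was lower past the mark (median 0.33). The glucose transporter Slc2a2 had 10.3 FPKM in db liver, against 2.18 FPKM in misty liver (2.01). For glycogen, Ugp2, which makes UDP-glucose, had 126 FPKM in db and 30.9 FPKM in misty liver (2.01) and the branching enzyme Gbe1 70.9 FPKM in db and 23.7 FPKM in misty liver (1.56). The synthase Gys2 had 0.326 FPKM in db and 1.58 FPKM in misty liver (-1.33). Gys2 lay near the 1 FPKM minimum and went inside the mark with a pseudocount of 1 FPKM. In CD liver, normalized separately, Gys2 is listed at 22.7 FPKM, so the level here may not be that of the whole gene. Pdk1 had 34.4 FPKM in db liver, against 8.28 FPKM in misty liver (1.99), the opposite side from Pdk4. The glucose-6-phosphatase G6pc, the last step of glucose output, stood at 42.1 FPKM in db and 55.1 FPKM in misty liver and did not pass the mark. None of 13 insulin signalling genes passed it, with ratios between -0.82 and 0.59, where 6.58% of all genes were higher and 3.48% lower.

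Txnip, a glucose-induced inhibitor of thioredoxin, was among the lowest of all genes, with 0.634 FPKM in db liver, against 45.6 FPKM in misty liver (-5.35). In the growth hormone and IGF list 6 of 15 were lower and 1 higher past the mark. Igfbp2, an insulin-like growth factor binding protein that leptin is known to induce in mouse liver, had 14.6 FPKM in db liver, against 209 FPKM in misty liver (-3.80). Igfbp1 had 10.9 FPKM in db liver, against 79.2 FPKM in misty liver (-2.80), and the epidermal growth factor receptor Egfr 27.2 FPKM in db and 137 FPKM in misty liver (-2.31). The STAT5 feedback gene Socs2 had 0.846 FPKM in db and 2.54 FPKM in misty liver (-1.18). Igf1 itself had 16.8 FPKM in db and 8.82 FPKM in misty liver (0.89), and the receptor Ghr 15.3 FPKM in db and 7.31 FPKM in misty liver (1.01), both on the high side, Ghr only just past the mark. The STAT5 genes were near equal, with Stat5b at 1.295 FPKM in db and 1.16 FPKM in misty liver and Stat5a at 1.57 FPKM in db and 1.84 FPKM in misty liver. Of other secreted factors, the hepatokine Lect2 had 61.2 FPKM in db liver, against 13.3 FPKM in misty liver (2.16).

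Bile acid genes lay on both sides. Cyp7a1, the rate-limiting enzyme of the classical route, had 3.73 FPKM in db liver, against 0.319 FPKM in misty liver (2.37), while Cyp7b1 of the alternative route, also in the male-biased list, was lower, as given above. Akr1d1, a reductase that shapes the steroid ring, had 72.9 FPKM in db liver, against 3.698 FPKM in misty liver (4.13). Uptake carriers differed among themselves, with Slco1a4 at 4.303 FPKM in db and 0.898 FPKM in misty liver (1.78), the male-biased Slco1a1 at 0.161 FPKM in db and 2.67 FPKM in misty liver (-2.26) and Slc10a1 at 12.3 FPKM in db and 13.9 FPKM in misty liver. The phospholipid exporter Abcb4 had 2.36 FPKM in db and 5.57 FPKM in misty liver (-1.09). In CD liver, normalized separately, Abcb4 is listed at 146 FPKM, so the level here may not be that of the whole gene. In all 7 of 21 were higher past the mark and 3 lower.

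Acute phase genes, which hepatocytes release in inflammation, were divided too, with 6 of 22 higher, 2 lower and a median of -0.04. The orosomucoids Orm3 (27.1 FPKM in db and 0.642 FPKM in misty liver) and Orm2 (95.7 FPKM in db and 9.18 FPKM in misty liver) were on the high side (4.60 and 3.31), and so was a retained intron transcript of the serum amyloid Saa2 (97.6 FPKM in db and 22.8 FPKM in misty liver). Haptoglobin (Hp), which binds free hemoglobin, had 1.34 FPKM in db liver, against 118 FPKM in misty liver (-6.02), among the lowest of all genes. The fibrinogen chain Fga stood at 489 FPKM in db and 564 FPKM in misty liver, near equal. Metal genes held 3 members past the mark, all higher. The metallothionein Mt1, which binds zinc and answers glucocorticoids, had 647 FPKM in db liver, against 93.8 FPKM in misty liver (2.78), Mt2 had 3.59 FPKM in db liver and is listed next to 0 in misty liver, and Hamp2 was given above. Hepcidin itself (Hamp) had 348 FPKM in db and 206 FPKM in misty liver (0.76).

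Car3, a carbonic anhydrase abundant in male rodent liver and in adipocytes, had 184 FPKM in db liver, against 2.49 FPKM in misty liver (5.95). Of 8 adipocyte markers only Fabp4 was compared, so whether adipocyte genes differed with Car3 cannot be read from the list. Fabp4 stood at 13.5 FPKM in db and 10.98 FPKM in misty liver. Adipoq was higher in db but under 1 FPKM in both groups, at 0.305 FPKM in db and 0.0133 FPKM in misty liver. The other 6 of 8 markers had no transcript with status OK.

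Several circadian output genes were higher in db liver. Of 14 compared 5 were past the mark upwards and none downwards (median 0.51). Dbp, an output factor of the D-box family, had 12.7 FPKM in db liver, against 1.405 FPKM in misty liver (2.79), its relative Tef 9.83 FPKM in db and 2.94 FPKM in misty liver (1.59), and the repressor Ciart 3.31 FPKM in db and 0.235 FPKM in misty liver (2.37). The kinase Wee1 had 1.12 FPKM in db and 0.279 FPKM in misty liver (1.05). The core activator Arntl, at 0.721 FPKM in db and 1.74 FPKM in misty liver (-0.87), and Nfil3, the D-box repressor E4BP4, at 1.35 FPKM in db and 2.47 FPKM in misty liver (-0.68), were on the low side without passing the mark. With sums over transcripts with status OK, 2 circadian genes were past the mark downwards, among them Arntl (-1.05). These genes are known to follow the hour of the day, and the hour of collection of these livers is not given in the sources used here.

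**Figure D4:**
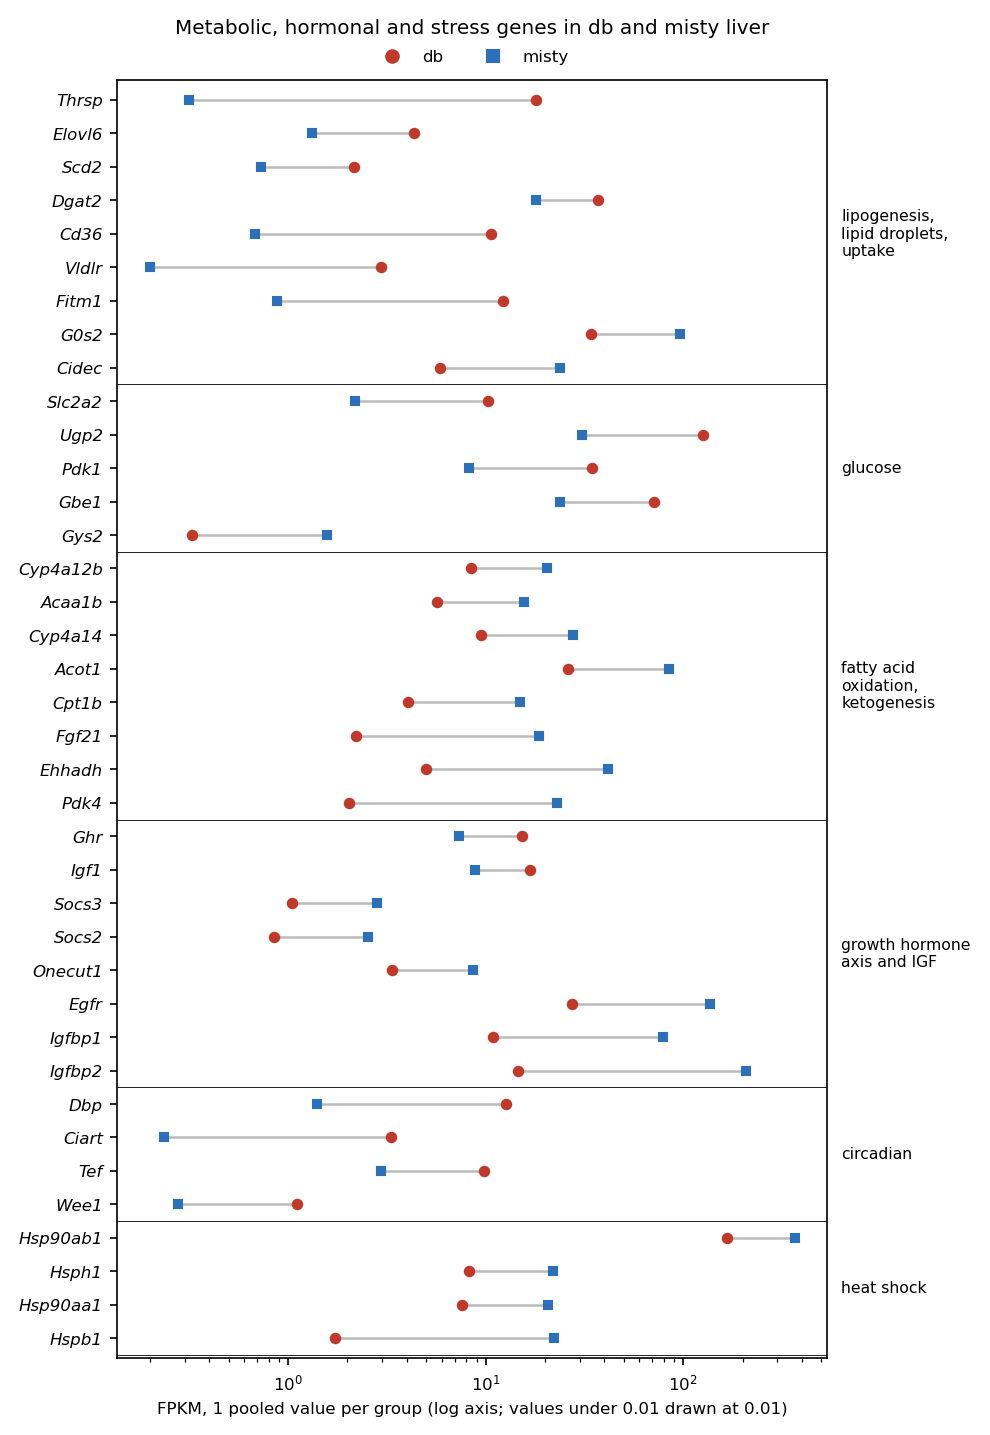
Levels of 38 genes of lipid, glucose, hormonal, circadian and heat shock groups in FPKM on a log axis, with db as red circles and misty as blue squares. Wide gaps are seen for Thrsp (18.1 in db against 0.317 FPKM in misty), Cd36 (10.7 in db against 0.684 FPKM in misty), Igfbp2 (14.6 in db against 209 FPKM in misty) and Hspb1 (1.73 in db against 22.3 FPKM in misty).

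All 10 heat shock genes compared had ratios below 0, and 4 passed the mark (median -0.64). The small chaperone Hspb1 had 1.73 FPKM in db liver, against 22.3 FPKM in misty liver (-3.35). The cytosolic chaperones Hsp90aa1 (7.59 FPKM in db and 20.7 FPKM in misty liver), Hsph1 (8.24 FPKM in db and 21.9 FPKM in misty liver) and Hsp90ab1 (167 FPKM in db and 368 FPKM in misty liver) followed, while Hspa8 (29.1 FPKM in db and 42.2 FPKM in misty liver) and Dnajb1 (3.34 FPKM in db and 3.47 FPKM in misty liver) stayed inside the mark. A pair of heat shock letters, GAANNTTC, occurred in 5.28% of all 4376 windows and in 3 of 7 heat shock windows. These were the windows of Hspb1 and of Hspd1 (-0.58) and Hspe1 (-0.51), which stayed inside the mark. With 7 windows the share is only a description. The Hspb1 window is shown because it holds 2 pairs, in capitals, starting 117 and 97 bases before the gene start.
Hspb1 (chr5:135887669-135887918, plus strand): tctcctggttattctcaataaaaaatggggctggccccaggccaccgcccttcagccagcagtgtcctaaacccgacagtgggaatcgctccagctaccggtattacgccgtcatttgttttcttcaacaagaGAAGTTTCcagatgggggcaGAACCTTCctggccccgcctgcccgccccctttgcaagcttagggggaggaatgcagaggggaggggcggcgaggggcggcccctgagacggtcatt
Of 18 genes of the endoplasmic reticulum and integrated stress response list, 4 were lower past the mark and none higher. They were the ubiquitin ligase Syvn1 (1.62 FPKM in db and 6.82 FPKM in misty liver), Sdf2l1 (1.499 FPKM in db and 5.798 FPKM in misty liver), the transcription factor Atf5 (20.6 FPKM in db and 54.4 FPKM in misty liver) and Hsph1, which is also counted among the heat shock genes above. Atf4, the centre of the integrated stress response, had 6.499 FPKM in db and 7.08 FPKM in misty liver. Gadd45g, an early stress gene, had 2.94 FPKM in db liver, against 20.6 FPKM in misty liver (-2.62).

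Markers of the other cells of the liver were mostly inside the mark, as were most genes. Over all genes compared 6.58% were past it upwards and 3.48% downwards. In lists this small the counts do not set the markers apart from other genes, and the pseudocount shrinks the ratios of low ones. Of 32 macrophage markers 17 were compared, none was past the mark upwards and 1 was past it downwards, and they summed to 70.03 FPKM in db and 69.04 FPKM in misty liver. Adgre1 (F4/80) had 3.44 FPKM in db and 3.298 FPKM in misty liver, the Kupffer cell lectin Clec4f 3.203 FPKM in db and 4.47 FPKM in misty liver, and Cd68 3.28 FPKM in db and 2.32 FPKM in misty liver. Cd14, a receptor for bacterial lipopolysaccharide that hepatocytes also express, was the lower member, with 2.05 FPKM in db and 4.72 FPKM in misty liver (-1.03). None of 17 stellate cell and fibrosis genes passed the mark. The actin Acta2, at 1.38 FPKM in db and 0.646 FPKM in misty liver (0.72), had the highest ratio of that list, which summed to 116 FPKM in db and 98.6 FPKM in misty liver. Endothelial markers summed to 19.005 FPKM in db and 20.96 FPKM in misty liver, with none of 8 past the mark. Only Ptprc of 23 lymphocyte markers was compared, at 1.43 FPKM in db and 1.26 FPKM in misty liver. Among bile duct and progenitor markers Sox9 had 1.001 FPKM in db and 3.44 FPKM in misty liver (-1.39), the 1 of 6 past the mark. None of 4 globin genes of blood passed the mark, with ratios between -0.04 and 0.51 and Hbb-bs at 419.6 FPKM in db and 419.5 FPKM in misty liver. In whole liver, fewer cells of a type and less RNA per cell cannot be told apart.

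Chemokines were scarce: of 32 genes 9 were compared, and Cxcl9 (3.56 FPKM in db and 0.619 FPKM in misty liver) and a retained intron transcript of Cxcl1 (1.65 FPKM in db and 0.312 FPKM in misty liver) were past the mark upwards. Of 16 interferon response genes 1 passed it (6.25%), Ifi27l2b, at 4.49 FPKM in db and 0.497 FPKM in misty liver (2.32). That share is near the 6.58% of all genes compared that were past the mark upwards. With so few genes, neither count sets its list apart from other genes.

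Long noncoding RNAs (lncRNAs), transcripts with little coding potential, were compared as a class because the study asked how nutrient states affect them relative to mRNAs. Of 333 lncRNA genes compared 25 were 2-fold or more higher in db (7.51%) and 11 lower (3.3%). The shares over protein-coding genes were 6.37% higher and 3.30% lower. The median log2 ratio was 0.00 for lncRNAs and 0.05 for protein-coding genes, and the quartiles were -0.29 and 0.35 for lncRNAs and -0.22 and 0.34 for protein-coding genes. Both medians thus lay close to 0 relative to the quartiles of their class. For this pair the study reported liver lncRNAs lower relative to mRNAs, though less so than in diet-induced obesity. By quantitative PCR it also reported lower levels in db mice of the liver lncRNAs it followed. The filter, the pseudocount and the choice of transcript were set here, and the study's test of the distributions was not repeated. The medians therefore do not decide whether lncRNAs were shifted.

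The lncRNA with the lowest ratio was C330002G04Rik, with 0.0419 FPKM in db liver, against 5.93 FPKM in misty liver (-3.57). Egfros, an antisense RNA named for the opposite strand of Egfr, had 1.66 FPKM in db liver, against 10.9 FPKM in misty liver (-2.40), and Egfr was lower with it. The libraries were strand-specific by the labels, but whether the counting used strand is not given in the sources used here. Gm28182 (0.631 FPKM in db and 4.98 FPKM in misty liver), Gm26652 (0.208 FPKM in db and 2.401 FPKM in misty liver) and 3930402G23Rik (0.0954 FPKM in db and 1.72 FPKM in misty liver) came next. On the high side were Gm6135 (10.7 FPKM in db and 0.7204 FPKM in misty liver, 3.20) and Gm28836 (4.78 FPKM in db and 0.244 FPKM in misty liver, 2.83). Gm11752 had 6.302 FPKM in db and 1.25 FPKM in misty liver, and the antisense RNA Sardhos 109 FPKM in db and 27.6 FPKM in misty liver, the most abundant of these. RP23-104C18.1 had 10.1 FPKM in db liver and is listed at 0 in misty liver. Of 8 liver lncRNAs listed, most of them followed by the study in diet-induced obesity, 4 were compared, and these 4 had ratios below 0. 9030616G12Rik had 1.91 FPKM in db liver, against 7.095 FPKM in misty liver (-1.66). The others were Gm10319 (2.74 FPKM in db and 3.73 FPKM in misty liver), 9030622O22Rik (2.92 FPKM in db and 3.43 FPKM in misty liver) and Gm8883 (1.13 FPKM in db and 1.35 FPKM in misty liver), all inside the mark. The study picked those RNAs from livers that include other samples of this series, and the count is no independent evidence.

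The most abundant listed genes of db liver included Fnd3c2 (94318 FPKM in db and 60335 FPKM in misty liver), Rn7sk (56718 FPKM in db and 72209.8 FPKM in misty liver) and Gm10837 (42976 FPKM in db and 33542 FPKM in misty liver). Traj52, an annotated segment of 66 bases, is listed at 4310.2 FPKM in db and 0 in misty liver. An FPKM is hard to interpret for a feature this short. Among usual liver mRNAs Apoa2 (5775 FPKM in db and 4022 FPKM in misty liver), Cyp2e1 (3476 FPKM in db and 2631 FPKM in misty liver) and the vitamin D carrier Gc (3419 FPKM in db and 2298 FPKM in misty liver) led. Zfp936, a zinc finger gene whose listed transcript has 578 bases, is listed at 0 in db liver and 303 FPKM in misty liver, and Camk2d at 0 in db liver and 8.63 FPKM in misty liver for a transcript of 206 bases. Summed over its 5 transcripts with status OK, Camk2d had 1.82 FPKM in db and 11.2 FPKM in misty liver. Of 18 respiratory chain genes 3 were higher past the mark and none lower (median 0.31). Of 17 ribosomal protein genes 2 were lower and none higher (median -0.37). Over all genes compared 6.58% were higher and 3.48% lower, and counts this small do not set these lists apart.

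The high-fat diet table of the series gives genes of the same names in another obese model. It was normalized separately and shares no sample with this one, and no difference between the models was tested. By the study's methods the HFD and CD libraries were made at another centre with another kit. The transcript standing for a gene was chosen within each table and can differ between them. Cyp2e1 had 2631 FPKM in misty and 2.81 FPKM in CD liver, and Pdk4 22.9 FPKM in misty and 2.49 FPKM in CD liver. Of the 427 genes higher in db 324 were also compared there, and 68 of these were 2-fold or more higher on HFD and 5 lower. Of the 226 lower in db 167 were compared, of which 50 were lower on HFD and 6 higher. Of all 6784 genes compared between the diets, 4.30% were higher and 1.93% lower on HFD. Most genes past the mark in db were therefore inside it on HFD, 251 of the 324 and 111 of the 167, for transcripts that can differ.

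Among genes past the mark in both, Mup1 had 0.808 FPKM on HFD and 36.04 FPKM on CD (-4.80), Serpina1e 5.87 FPKM on HFD and 77.6 FPKM on CD (-3.62), and Igfbp2 35.8 FPKM on HFD and 223 FPKM on CD (-2.62). Cyp2b9 had 103 FPKM on HFD against 8.85 FPKM on CD (3.47), and Gstm3 21.9 FPKM on HFD against 1.32 FPKM on CD (3.62). Other genes past the mark in db were inside it on HFD, for transcripts that can differ from those compared in db and misty liver. Haptoglobin had 8.18 FPKM on HFD and 12.2 FPKM on CD (-0.55), Hspb1 13.7 FPKM on HFD and 14.7 FPKM on CD (-0.10), Dbp 18.6 FPKM on HFD and 18.8 FPKM on CD (-0.01), and Pdk4 1.59 FPKM on HFD and 2.49 FPKM on CD (-0.52). Cidec lay on opposite sides, with 13.1 FPKM on HFD and 4.397 FPKM on CD (1.47). Macrophage markers differed by list as well: on HFD 11 of 20 were past the mark upwards (median 1.06), against none of 17 in db (median 0.07).

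**Figure D5:**
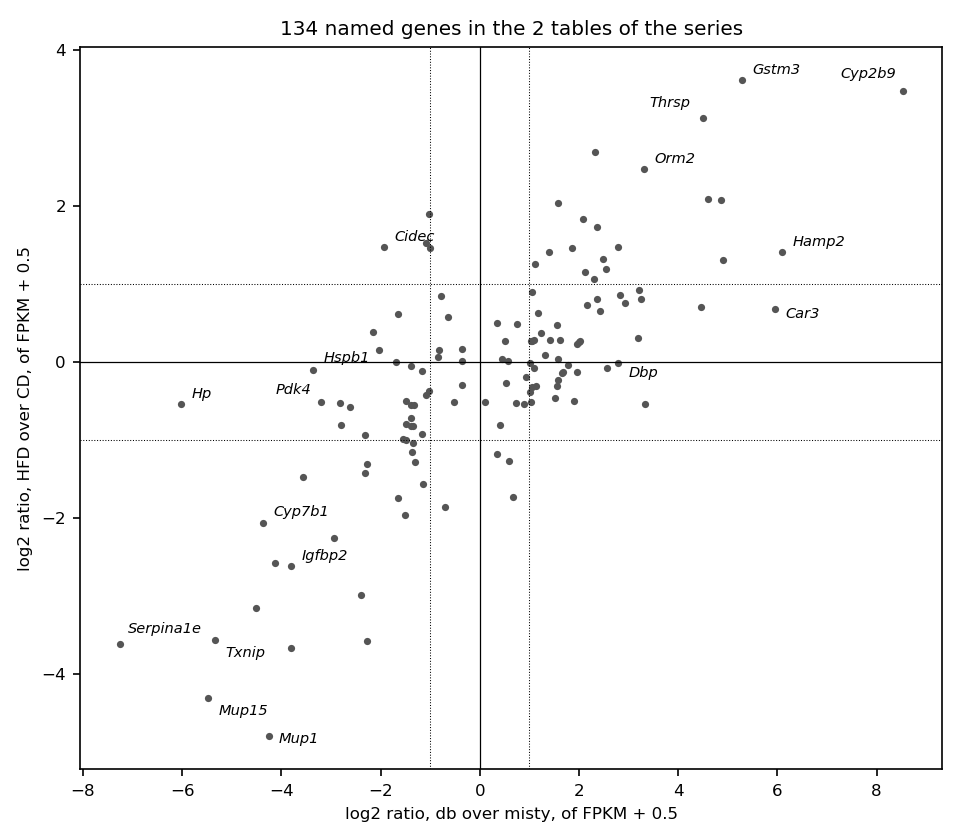
The log2 ratio of db over misty (horizontal axis) and of HFD over CD (vertical axis) for 134 genes named by a fixed rule that have both values, with the 2-fold mark dotted. Mup15, Serpina1e and Txnip lie low in both, Cyp2b9, Gstm3 and Thrsp high in both, Hp and Hspb1 are past the mark downwards in db and inside it on HFD, and Cidec is low in db (-1.93) and high on HFD (1.47).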

How the data were processed

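Reads were trimmed of adapters by the authors and filtered against ribosomal RNA sequence (Bowtie2 2.2.9). The remainder were mapped to GRCm38 using STAR 2.6.0c, assembled in Cufflinks 2.2.1 and quantified by Cuffdiff, and the deposited table gives 1 pooled FPKM per group and transcript, with no value per liver. Transcript lengths and the percent GC content in the same table were joined by the authors from Ensembl. Its columns of fold changes, test statistics, p-values and calls hold the authors' own comparison and were not used.

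Here (Python 3, pandas) rows with status OK and a gene name were reduced to the transcript with the highest mean of both groups, and log2 ratios were formed with a pseudocount of 0.5 FPKM for genes whose higher group reached 1 FPKM, which favours genes high in 1 group only. A value under 0.001 FPKM is called listed at or next to 0 and gets no fold. Members and the 49 gene lists (1082 genes, of which 603 were compared, 150 lay under the minimum and 329 had no transcript with status OK) were chosen with earlier results of these data known.

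Genes were named by rank: the 12 highest and lowest protein-coding ratios, the 8 of each at 50 FPKM or more, 5 lncRNAs of each, the 10 most abundant in db, and in each list the members past the mark or, beyond 6, the 3 highest and lowest. Other members were named after their values were seen, to describe a list. lncRNAs are 5 Ensembl biotypes. Motifs were fixed letters on both strands. The steps were tested on simulated data. Alternatives were pseudocounts of 0.1 and 1 FPKM, no filter, a filter of 5 FPKM, sums over transcripts with status OK or of any status, centring, and, added after seeing the data, transcripts of 200 bases or more. Some genes are counted in their lists but not reported here by name.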

Additional observations from a re-analysis of the deposited data

How the results depend on the processing

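No paired analysis was possible because each group has a single pooled value, and for the same reason no liver could be left out. Of the 165 genes named by the rank and list rule, none changed sign under the alternatives that gave a value. Other genes in the text were not followed through every alternative, and of these Stat5b, at 0.11, had -0.04 with sums over transcripts with status OK. With a pseudocount of 1 FPKM 19 of them went inside the mark, with sums over transcripts with status OK 10, with sums of any status 11 and with centring 4. The 427 genes higher in db ranged from 240 (filter of 5 FPKM, 2153 genes left) to 519 (pseudocount of 0.1 FPKM). The 226 lower genes became 145 with a pseudocount of 1 FPKM, 107 with the filter of 5 FPKM and 316 with a pseudocount of 0.1 FPKM. The 25 higher lncRNAs became 13 with the filter of 5 FPKM. The 11 lower ones became 5 with that filter and 20 with a pseudocount of 0.1 FPKM. These counts moved because the filter leaves fewer genes and the pseudocount shrinks or widens low ratios by construction. Of the 653 genes past the mark 610 kept their call when transcripts with status OK were summed. The female-biased median was 4.06 with a pseudocount of 0.1 FPKM, 1.97 with no filter and 3.91 with the filter of 5 FPKM. Over the genes compared, the ratio had a Spearman rho of -0.06 with transcript length and -0.16 with GC content.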

Other observations

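Enzyme families counted by name, a choice made after values were seen, add to the lists. All 11 sulfotransferase genes (Sult) compared were past the mark upwards, and they summed to 290 FPKM in db and 5.92 FPKM in misty liver. Sult2a1, which acts on bile acids and steroids, had 6.36 FPKM in db liver and is listed at 0 in misty liver, and Sult1a1, at 2.49 FPKM in db and 0.896 FPKM in misty liver (1.10), had the lowest ratio of the family. Of 18 Cyp2a, Cyp2b and Cyp2c genes 13 were higher and none lower, whereas of 9 glucuronosyltransferases (Ugt) 1 was higher and 1 lower. Of 8 aldehyde dehydrogenases 4 were higher and none lower, with the mitochondrial Aldh1b1 at 17.5 FPKM in db and 2.73 FPKM in misty liver (2.48). Of 21 mitochondrial carriers (Slc25) none was higher and 2 were lower. Over all genes compared 6.58% were higher and 3.48% lower, and the Ugt and Slc25 counts are too small to differ clearly from those shares.

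Several genes outside every list differed widely, and they were picked after their values were seen. Serpina7, the thyroxine carrier, had 21.6 FPKM in db liver, against 1.11 FPKM in misty liver (3.78), and Ly6d, a surface antigen, 28.8 FPKM in db and 1.98 FPKM in misty liver (3.57). Cyp26a1, which clears retinoic acid, had 4.85 FPKM in db and 0.124 FPKM in misty liver (3.10), while Retsat, a retinol saturase, had 140.0 FPKM in db and 367 FPKM in misty liver (-1.39). The water channel Aqp8 had 27.7 FPKM in db liver, against 3.66 FPKM in misty liver (2.76), and the carboxypeptidase Cpe 44.3 FPKM in db and 5.25 FPKM in misty liver (2.96). Nampt, the salvage enzyme of NAD synthesis, had 8.18 FPKM in db and 0.986 FPKM in misty liver (2.55), and the splicing factor Srsf5 3.57 FPKM in db and 42.8 FPKM in misty liver (-3.41).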
